A study of Mus musculus with 9 samples.

Results

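The 38 genes described here are the protein-coding Hox genes of the mouse Hoxa, Hoxb, Hoxc and Hoxd clusters, chosen by name and read through the RefSeq accession of each probe. They are 38 of 20660 named genes on the array: 10 in Hoxa, 10 in Hoxb, 9 in Hoxc and 9 in Hoxd. RNA of mouse embryonic stem (ES) cells was measured on 9 one-colour Agilent arrays, 1 for each of 3 lines on each of 3 days. The lines were wild type, PKm1 knock-in (PKm1KI) and PKm2 knock-in (PKm2KI), named for the isoforms of the glycolytic enzyme pyruvate kinase M. Undifferentiated cells of each line, grown with LIF (a cytokine that keeps mouse ES cells undifferentiated), are called day 0. Floating embryoid bodies, aggregates in which ES cells differentiate, were kept without LIF and sampled at day 3 and day 7. Each genotype was 1 line, how the knock-in alleles were made is not given in the sources used here, and no label says that any array repeats another. Days were therefore compared over the 3 lines and lines over the 3 days, and p-values measure only the spread between these arrays.

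Hox genes encode homeodomain transcription factors that give cells along the head-to-tail axis their regional identity. Within a cluster the genes lie in the order of their paralogue number, and in the embryo the low-numbered genes are switched on earlier and closer to the head than the high-numbered ones. In ES cells most Hox promoters are held silent by Polycomb repression, and Wnt and FGF signals, Cdx factors and retinoic acid are known activators of the clusters.

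Values are scaled array signals (arbitrary units, with a floor of 5), and a gene counts as measured on an array when a probe is well above background there. The lowest signal of any probe well above background, called the background limit here, was between 15 and 23.8 across arrays, so a value below this range is not a level. Some signals above an array's limit were not well above background either, as Hoxb6 at 29.4 on the PKm1KI day 0 array (limit 23.8). Folds given as at least a value use this lenient limit or the probe's own signal, and are nominal rather than strict bounds. Between 54.2% and 61.6% of spots were well above background, none was saturated, and array pairs correlated at 0.892 to 0.984 across 15016 genes. The number of arrays limits the precision. All 10 ES cell markers were measured on all 9 arrays, which include the embryoid body arrays, and their summed signal ranged from 207000 (PKm1KI day 7) to 499000 (PKm1KI day 0).

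Fewer Hox genes were measured at day 3 than at day 0 or day 7 in each line. In wild type, 18 of 38 were measured at day 0, 7 at day 3 and 21 at day 7. The PKm1KI arrays measured 13, 9 and 21 in the same order, and the PKm2KI arrays 19, 7 and 13. No day 3 array reached the count of any day 0 or day 7 array, while the day 0 and day 7 counts overlapped. Of all spots, 61.4%, 59.5% and 61.6% were well above background in wild type at days 0, 3 and 7. The shares were 54.2%, 57.1% and 60.9% in PKm1KI and 58.8%, 55.3% and 59.5% in PKm2KI. With a lower bar, signal positive and significant against background, the counts at days 0, 3 and 7 were 34, 29 and 34 in wild type, 30, 28 and 34 in PKm1KI and 31, 28 and 28 in PKm2KI, so that the day 3 and day 7 counts of PKm2KI were equal. Over all arrays, 30 members were measured at least once, 2 (Hoxa7 and Hoxc13) on all 9, and 8 on none: Hoxa5, Hoxa10, Hoxb1, Hoxc8, Hoxc12, Hoxd1, Hoxd3 and Hoxd12. These 8 may still be present below the background limit of the arrays. Hoxb1, a hindbrain gene with 10 spots per array, had signals between 5 and 5.94 with no spot well above background.

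**Figure D1:**
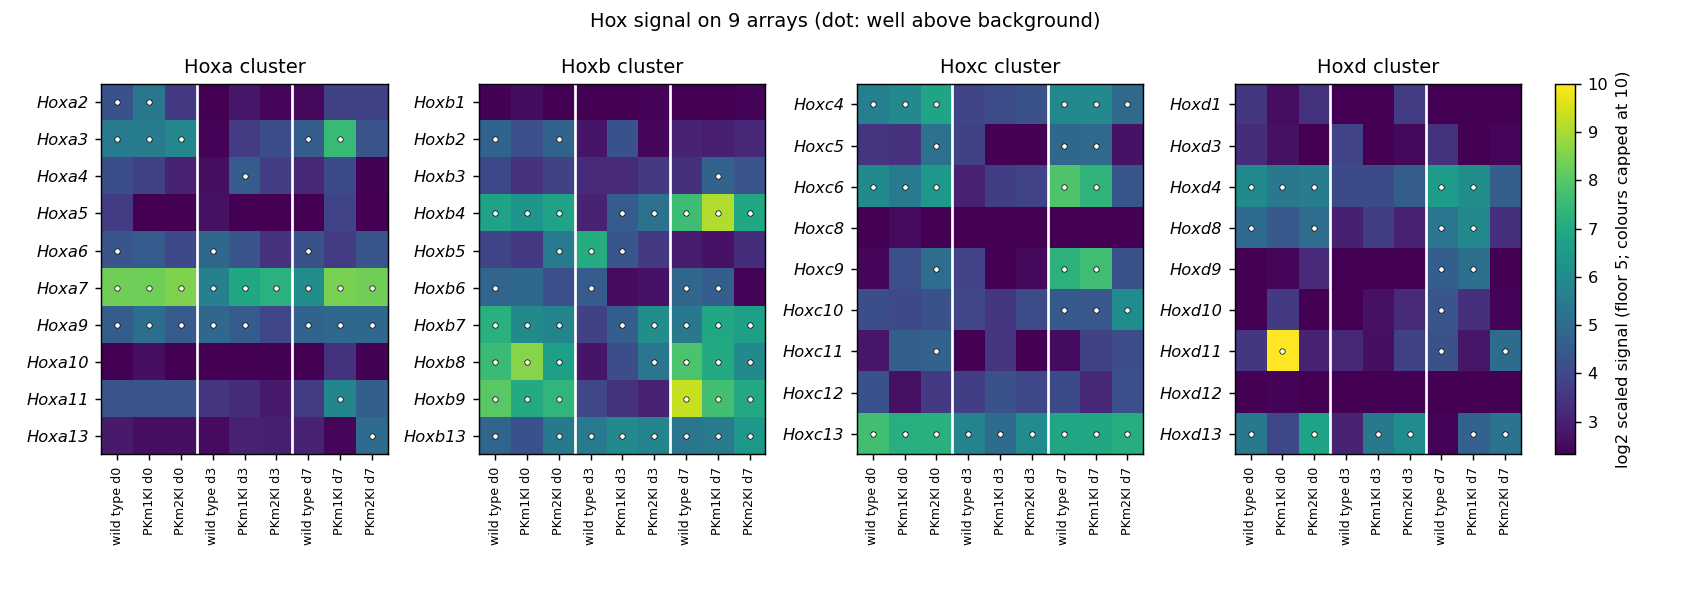
Log2 scaled signal of the 38 Hox genes on 9 arrays, one panel per cluster with genes in paralogue order (rows) and arrays grouped by day (columns); a dot marks a gene well above background on that array. Dots thin out in the day 3 columns, Hoxa7 and Hoxc13 carry one in every column, and colours compare arrays within a gene, not genes with each other.

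The lower day 3 counts were found in all 4 clusters, with 1 exception among the lines. Hoxc had 3, 3 and 6 of 9 genes measured at day 0 in the wild type, PKm1KI and PKm2KI lines, 1 in each line at day 3, and 6, 6 and 3 at day 7. Hoxd ran likewise, with 3, 2 and 3 of 9 at day 0, 0, 1 and 1 at day 3, and 5, 4 and 2 at day 7. Of 10 Hoxa genes 5, 4 and 3 were measured at day 0, 3, 3 and 1 at day 3, and 4, 4 and 3 at day 7. Of 10 Hoxb genes the counts were 7, 4 and 7, then 3, 4 and 4, then 6, 7 and 5, so that PKm1KI had as many Hoxb genes measured at day 3 as at day 0.

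By paralogue position, anterior genes (groups 1 to 3, 7 members) were measured 3, 2 and 2 times at day 0, never at day 3, and 1, 2 and 0 times at day 7. Central genes (groups 4 to 8, 15 members) went from 10, 7 and 10 at day 0 to 4, 5 and 4 at day 3 and 11, 10 and 5 at day 7. Posterior genes (groups 9 to 13, 16 members) went from 5, 4 and 7 to 3, 4 and 3 and then to 9, 9 and 8. The PKm2KI line at day 7 thus had posterior genes in number close to the other lines and fewer central and anterior ones. Group 9 (4 members) was measured 2, 2 and 3 times at day 0, 1, 1 and 0 times at day 3 and 4, 4 and 2 times at day 7. Group 13 (4 members) ran differently, with 3, 1 and 3 at day 0, 2, 3 and 3 at day 3 and 2, 3 and 4 at day 7.

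**Figure D2:**
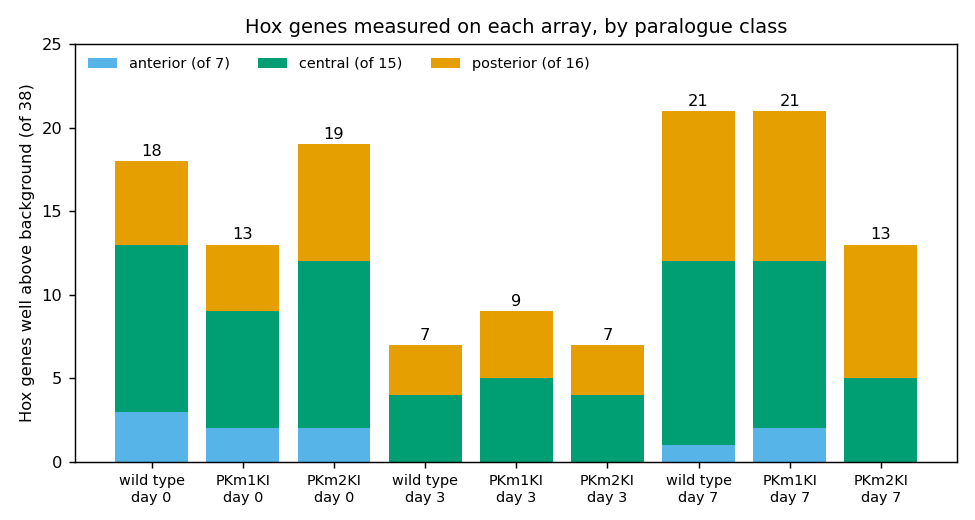
Number of Hox genes well above background on each array (y axis, of 38), stacked by paralogue class, with arrays in order of day and line on the x axis. The day 3 arrays hold 7 to 9 genes and none of the anterior class, against 13 to 21 on the day 0 and day 7 arrays.

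Of the 38 members, 21 were measured on 3 or more of the 9 arrays and entered the test, an additive limma fit of line and day with p-values adjusted over 15016 genes. This filter favours genes that are high on some arrays, so counts over the 21 are not counts over all members. Members measured at day 3 in no line entered only through their day 0 and day 7 arrays, which favours a lower day 3. At day 3 against day 0, 3 of 21 passed an adjusted p of 0.05 and all 3 were lower, beside 2.18% of all genes tested that passed and were lower (4.04% in either direction). The median log2 change of the 21 was -1.46 against 0.1 for all genes, and 19 were lower and 2 (Hoxb5 and Hoxb13) higher, where 42.6% of all genes were lower. For 10 of the 21 every day 3 array lay below every day 0 array, beside 14.1% of all genes. At an unadjusted p under 0.05, 11 were lower, beside 10.1% of all genes. In bulk RNA, fewer cells of a type and less RNA per cell cannot be told apart.

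Of the 10 tested members whose day 3 arrays all lay below all day 0 arrays, 7 have an upstream sequence in the RefSeq table, and these 7 are shown because they have that pattern in common. The signals of Hoxa2 and Hoxa11 had the same order, but neither gene was tested and their sequences are not shown. Each is the 150 bases before the annotated start in RefSeq (GRCm38.p6, 5′ to 3′ on the gene's strand). Hoxa3 (chr6:52213068-52213217) and Hoxa7 (chr6:52218574-52218723) lie on the minus strand. Hoxb4 (chr11:96318117-96318266), Hoxb8 (chr11:96281755-96281904), Hoxc4 (chr15:103034245-103034394), Hoxd4 (chr2:74721828-74721977) and Hoxd8 (chr2:74704465-74704614) lie on the plus strand. Capitals mark any of 4 motifs searched on both strands: the composite site of Pbx with Hox factors, TGATNNAT, the site of Cdx factors, TTTATG, the core hexamer of retinoic acid receptors, AGGTCA, and the site of the basal transcription machinery known as TATAAA. A match on the opposite strand appears in capitals as the reverse complement of the motif.
Hoxa3: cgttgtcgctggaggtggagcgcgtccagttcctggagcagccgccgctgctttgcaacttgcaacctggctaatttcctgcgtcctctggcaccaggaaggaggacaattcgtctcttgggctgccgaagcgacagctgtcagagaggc
Hoxa7: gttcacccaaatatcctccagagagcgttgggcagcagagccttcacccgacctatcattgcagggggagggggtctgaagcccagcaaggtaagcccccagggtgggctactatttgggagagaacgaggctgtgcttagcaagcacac
Hoxb4: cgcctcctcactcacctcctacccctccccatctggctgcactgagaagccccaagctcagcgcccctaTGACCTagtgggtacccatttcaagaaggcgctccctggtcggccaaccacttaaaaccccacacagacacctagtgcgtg
Hoxb8: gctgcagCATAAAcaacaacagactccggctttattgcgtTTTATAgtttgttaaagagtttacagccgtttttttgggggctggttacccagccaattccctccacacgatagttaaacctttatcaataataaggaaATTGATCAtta
Hoxc4: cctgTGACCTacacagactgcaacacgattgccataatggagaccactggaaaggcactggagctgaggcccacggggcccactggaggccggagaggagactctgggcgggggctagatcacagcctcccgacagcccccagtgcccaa
Hoxd4: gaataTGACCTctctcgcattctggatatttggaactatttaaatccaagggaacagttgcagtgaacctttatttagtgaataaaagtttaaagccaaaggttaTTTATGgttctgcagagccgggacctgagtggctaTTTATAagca
Hoxd8: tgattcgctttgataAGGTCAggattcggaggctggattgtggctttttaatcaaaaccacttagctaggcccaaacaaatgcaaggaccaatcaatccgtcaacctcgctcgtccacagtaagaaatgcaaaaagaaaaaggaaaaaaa

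Hoxa3 and Hoxa7 hold none of the 4 motifs. Hoxb4, Hoxc4 and Hoxd8 each hold 1 AGGTCA and no other motif searched, Hoxd4 holds 1 AGGTCA, 1 TTTATG and 1 TATAAA, and Hoxb8 holds 1 each of TGATNNAT, TTTATG and TATAAA. Of the 38 members, 22 matched a RefSeq window; where a member had several starts, the first listed was used. AGGTCA was in the window of 5 of 22 members (22.7%) and in 8.59% of 32841 windows of the same length. TTTATG was in 3 (13.6%, against 6.33%), TATAAA in 3 (13.6%, against 7.57%) and TGATNNAT in 2 (9.09%, against 4.12%). Median GC content was 59% in the members and 54% in all windows. A match describes these letters and is not a bound site, and a window without a match says only that the letters are not in it.

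Hoxb9, a gene of the thoracic region that helps to pattern the ribs, had the largest change of those that passed. Its signals at day 0 were 262 in wild type, 131 in PKm1KI and 168 in PKm2KI, at day 3 15.5, 11 and 8.39, and at day 7 644, 204 and 124. The gene was well above background on all 6 arrays of day 0 and day 7 and on none of day 3. Its day 3 signal was at least 9.57-fold lower than at day 0 (fitted log2 change -3.99 ± 0.36, limma adjusted p = 0.0106), the bound being the mean day 0 signal over the background limit of the day 3 arrays. Line by line the bounds were at least 15.9-fold lower in wild type, 6.84-fold in PKm1KI and 8.08-fold in PKm2KI. Only the PKm2KI line had its day 0 and day 3 arrays on the same slide.

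Hoxc13, known for its role in hair and nail formation, was measured on all 9 arrays. Its signals were 204, 143 and 147 at day 0 (wild type, PKm1KI, PKm2KI), 54.5, 32.7 and 65.4 at day 3, and 114, 119 and 138 at day 7. Day 3 was 3.33-fold below day 0 (log2 change -1.74 ± 0.26, limma adjusted p = 0.0306), and the day 3 arrays overlapped with neither other day. Day 7 signals in turn all lay below those of day 0, with a log2 difference of -0.40 ± 0.26 that did not pass (limma adjusted p = 0.505).

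Hoxc4, a gene of the neck and upper trunk whose upstream bases are among those shown, had signals of 49.5, 61.5 and 111 at day 0, 15.4, 16.8 and 18.7 at day 3, and 60, 61.2 and 31.6 at day 7 in the same line order. It was well above background in all lines at day 0 and day 7 and in none at day 3. Its day 3 signal was at least 3.72-fold lower than at day 0 (fitted log2 change -2.05 ± 0.40, limma adjusted p = 0.0465).

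These 3 calls depended on single arrays. None of them passed in a fit that left out the day 0 or the day 3 array of wild type or of PKm1KI, 1 (Hoxb9) passed without the wild type day 7 or the PKm2KI day 0 array, and 7 members passed without the PKm2KI day 7 array. The fit without the PKm2KI day 7 array also called more of all genes, 8.76% (4.4% as lower) against 4.04% with all 9 arrays. With the slide as a block, a fit that leaves out the PKm2KI day 7 array because it was alone on its slide, 5 members passed, all lower: Hoxb6, Hoxb9, Hoxc4, Hoxc6 and Hoxc13, beside 3.84% of all genes.

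**Figure D3:**
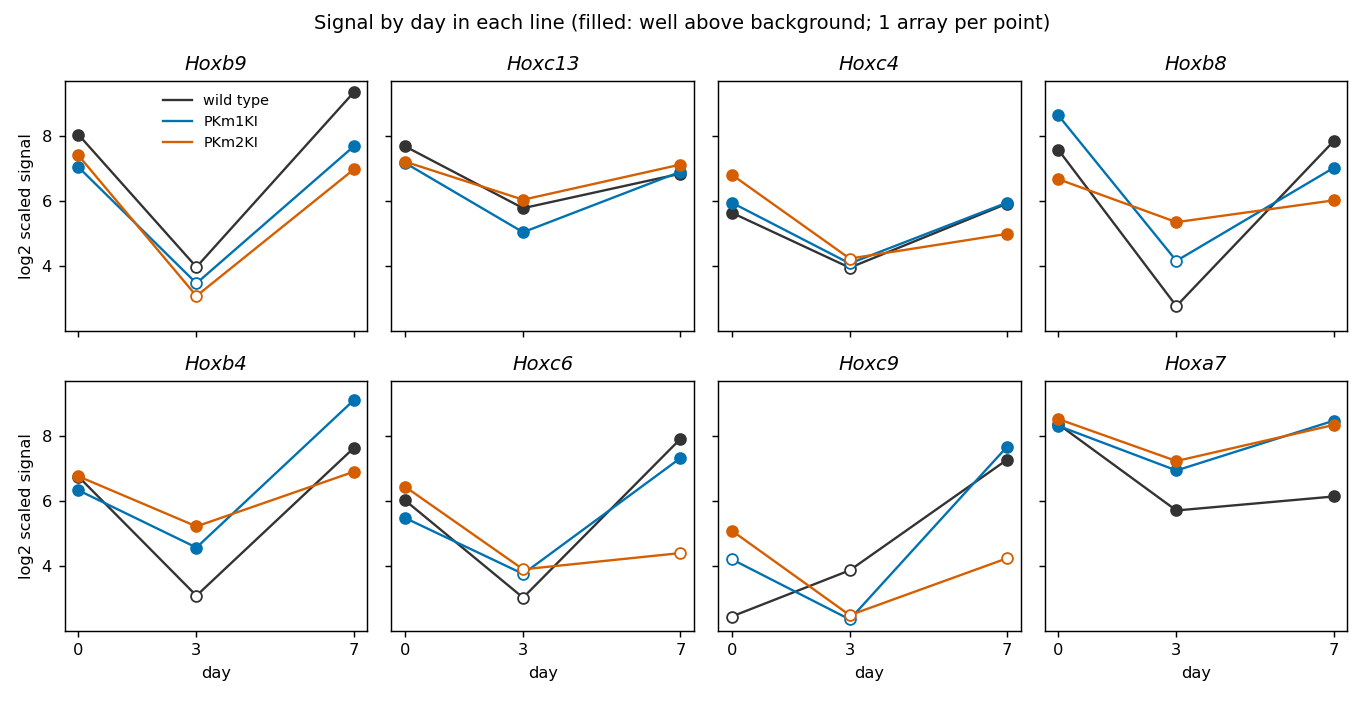
Log2 scaled signal (y axis) of 8 Hox genes at days 0, 3 and 7 (x axis) in the 3 lines, 1 array per point, filled where the gene was well above background. Hoxb9 and Hoxc4 have open points in all lines at day 3, and Hoxc6 and Hoxc9 have filled points at day 7 in wild type and PKm1KI and an open point in PKm2KI.

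Several central Hoxb genes had large differences that did not pass. Hoxb8, which acts in trunk patterning and in myeloid progenitors, had signals of 188, 394 and 101 at day 0, 6.76, 17.8 and 40.4 at day 3, and 228, 129 and 64.3 at day 7. All day 3 arrays lay below all others, and only the PKm2KI array was well above background at day 3. The log2 difference between day 3 and day 0 was -3.53 ± 0.81 (limma adjusted p = 0.0654).

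Hoxb4, a gene of the hindbrain and neck that also expands blood stem cells when overexpressed, read 107, 80 and 107 at day 0, 8.47, 23.5 and 37 at day 3, and 197, 543 and 119 at day 7. Its 3 days did not overlap, with day 3 lowest and day 7 highest. The log2 difference was -2.32 ± 0.65 between day 3 and day 0 (limma adjusted p = 0.0941) and 3.58 ± 0.65 between day 7 and day 3 (limma adjusted p = 0.0744).

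Hoxb7 read 148, 61.6 and 55.8 at day 0, 14, 24.8 and 69.6 at day 3, and 42.9, 120 and 104 at day 7. Its days overlapped, because the PKm2KI signal at day 3 was above that line's day 0 signal. Hoxb5 read 15.1, 12.4 and 46.1 at day 0, 135, 20.8 and 12.3 at day 3, and 7.69, 6.55 and 10.1 at day 7. The wild type day 3 array stood alone as high for Hoxb5, and no day 7 array was well above background.

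Among Hoxa genes, Hoxa7, a trunk gene, was measured on every array, at 325, 316 and 365 at day 0, 51.8, 122 and 149 at day 3, and 70.2, 352 and 321 at day 7. All day 3 arrays lay below all day 0 arrays (log2 difference -1.77 ± 0.44, limma adjusted p = 0.0763). At day 7 both knock-in lines were near their day 0 signals and wild type was not, at a log2 difference of -2.21 from its day 0 array on the same slide. Hoxa3, needed for the thymus and parathyroid, read 46, 47.6 and 59.4 at day 0, 5.32, 12.8 and 17.5 at day 3, and 24.3, 181 and 19.8 at day 7. It was measured in all lines at day 0, in none at day 3 and in wild type and PKm1KI at day 7.

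Hoxa2, the selector gene of the second pharyngeal arch, was measured only at day 0 in wild type and PKm1KI (19.2 and 40.4) and read 12.3 in PKm2KI. On the day 3 arrays it read 5, 7.08 and 5.45, and on the day 7 arrays 5.56, 14.2 and 14.4. Hoxa11, a gene of the forearm, kidney and uterus, has 10 spots per array, which show how firm a dim signal is. All 10 were well above background on the PKm1KI day 7 array (55.9), and at most 4 on any other. Its other signals were 19.9, 20 and 20.5 at day 0, 11.2, 9.92 and 7.38 at day 3, and 12.6 and 25.4 at day 7 in wild type and PKm2KI.

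In the Hoxd cluster, Hoxd4, a gene of the neck vertebrae, read 62.8, 42.3 and 47.6 at day 0, 16.5, 16.7 and 24.1 at day 3, and 92.2, 69.9 and 24.9 at day 7. It was measured in every line at day 0, in none at day 3 and in wild type and PKm1KI at day 7. The log2 difference between day 3 and day 0 was -1.42 ± 0.46 (limma adjusted p = 0.122). Hoxd8, a trunk gene, read 32, 22 and 33.8 at day 0, 7.93, 13.5 and 8.32 at day 3, and 40.3, 61.9 and 10.2 at day 7, with all day 3 arrays below all day 0 arrays.

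Hoxd13, which shapes the digits and external genitalia, read 43.4, 15.8 and 110 at day 0, 8.59, 43 and 66.1 at day 3, and 5.31, 26.5 and 38.1 at day 7, with overlap between all days. Hoxd11, a partner of Hoxa11 in forearm and kidney, rested on 1 spot. That spot read 1430 on the PKm1KI day 0 array and 11.6 and 8.6 in the other lines on that day. At day 3 it read 9.2, 6.28 and 14.3, and at day 7 18.9, 6.94 and 33.2. The PKm1KI day 0 value has no other probe to set it against.

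The remaining measured members were dim or ran otherwise. Hoxb13, a gene of the tail bud and prostate, was the only tested member whose day 3 arrays all lay above all day 0 arrays, where 22.7% of all genes did so. It read 28.5, 19 and 43.1 at day 0 and 46.3, 62.7 and 55.2 at day 3 (log2 difference 0.93 ± 0.30, limma adjusted p = 0.125), and 40.9, 46.3 and 86.1 at day 7. Hoxa9 was measured on 8 arrays with signals from 23.1 to 34.4, Hoxa6 on 3 arrays with signals up to 30.1, and Hoxb6 on 4 with signals up to 28.9.

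Measured on 1 or 2 arrays were Hoxb2 (27.9 in wild type and 27.4 in PKm2KI at day 0), Hoxc11 (26.9, PKm2KI day 0), Hoxa4 (23.7, PKm1KI day 3), Hoxb3 (27.4, PKm1KI day 7) and Hoxd10 (20.4, wild type day 7). Hoxa13, a gene of the hand and foot plate, was the only member measured at day 7 in PKm2KI alone (32.1). That signal came from 1 of its 2 probes, and the other read 11.5 there and was not well above background. Signals this close to the background limit carry little weight singly.

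Between day 3 and day 7 the differences ran the other way without passing the test. At day 7 against day 3, limma called 0 of 21 members and 0 of 15016 genes, although 11 members were higher at an unadjusted p under 0.05, beside 11.5% of all genes. Of the 21, 18 were higher, with a median log2 difference of 1.34 against -0.13 for all genes. The day 7 arrays all lay above the day 3 arrays for 10 of these 21, beside 10.1% of all genes. Of the 10, only Hoxb4, Hoxb8 and Hoxc13 were measured on any day 3 array. The others, like Hoxd8 among the 11, entered the test without a day 3 array, which favours a higher day 7. Hoxc10, in this count and among the 11, entered it through its day 7 arrays alone. Hoxb9 came nearest, at least 13.5-fold higher at day 7 (fitted log2 difference 4.49 ± 0.36, limma adjusted p = 0.0568). Of the 38 members, 11 were measured at day 7 in at least 2 lines and at day 3 in none. The share of all genes with that pattern was not computed, so whether it is particular to Hox genes is not known.

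Some alternatives ended this absence of calls, and leaving out the PKm2KI day 7 array gave the largest count, 9 of the 21 tested. Without it, 9 members passed and all 9 were higher (Hoxa3, Hoxb4, Hoxb9, Hoxc4, Hoxc6, Hoxc9, Hoxc13, Hoxd4 and Hoxd8), beside 7.8% of all genes that passed and were higher. Of these 9, only Hoxb4 and Hoxc13 were measured on any day 3 array. The others entered the test through day 0 and day 7 arrays alone, which favours a higher day 7. In that fit Hoxb9 had a log2 difference of 4.88 ± 0.32 (limma adjusted p = 0.00527, with a range of 0.00527 to 0.269 over 21 alternatives) and Hoxc6 one of 4.25 ± 0.36 (limma adjusted p = 0.00728, with a range of 0.00728 to 0.334). With the slide as a block, which also leaves that array out, 7 members passed, all higher, beside 7.02% of all genes in either direction. Among these 7, Hoxb4 alone was measured on any day 3 array. With that array kept, normexp background correction and trend and robust moderation each called Hoxb4 and Hoxb9, and scaling to detected probes called Hoxb9. The share of all genes called in these settings is not given here, so these calls are not read as results about the members. The PKm2KI day 7 array was the only array of its slide, so slide and sample cannot be told apart for it.

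**Figure D4:**
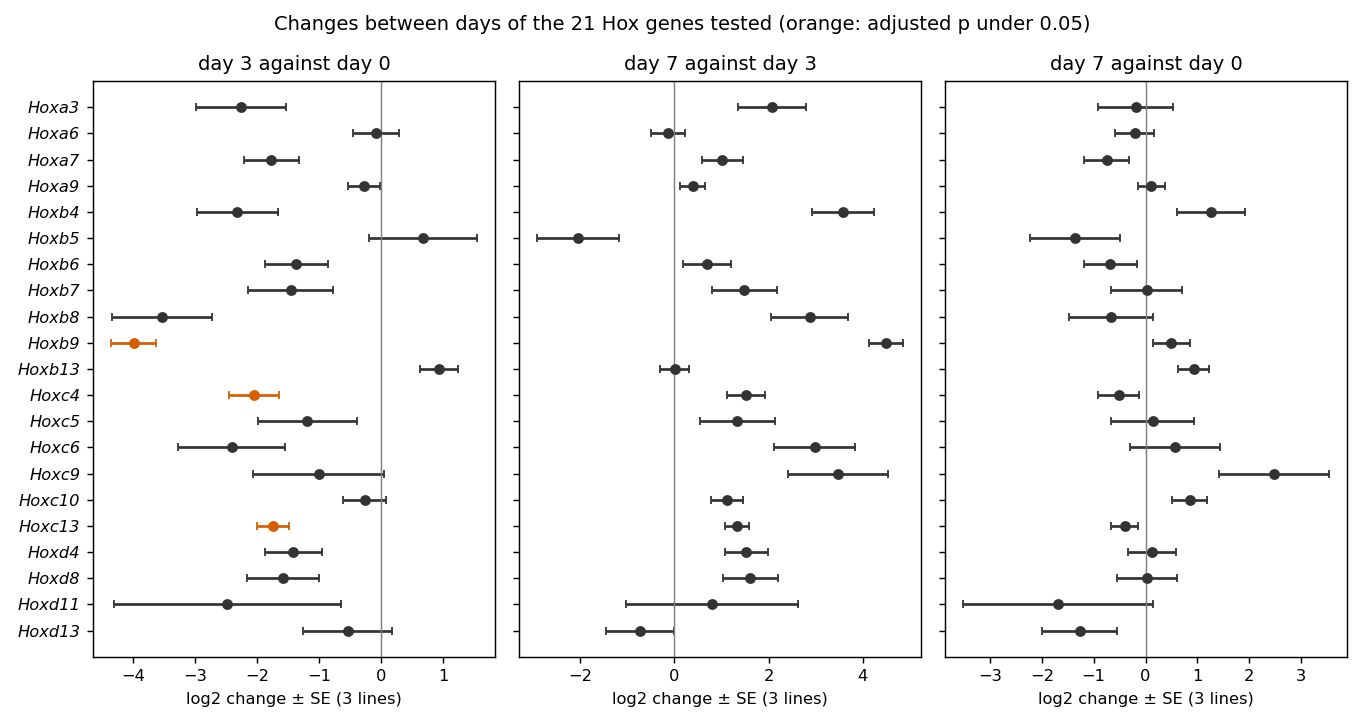
Fitted log2 change ± SE (x axis) of the 21 Hox genes tested (y axis) in 3 day comparisons, with the 3 lines as repeats; orange marks an adjusted p under 0.05. At day 3 against day 0, 19 of 21 points lie left of 0 and 3 are orange; at day 7 against day 3, 18 lie right of 0 and none is orange.

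No member passed between day 7 and day 0. Limma called 0 of 21 members at day 7 against day 0 (2, Hoxb13 and Hoxc10, at an unadjusted p under 0.05), beside 0.0999% of all genes called and 14.3% at the unadjusted threshold. The median log2 difference was 0.02, with 11 higher and 10 lower. Hoxc10, which marks the lumbar spinal cord, was measured at day 7 in all 3 lines (22.5, 21.3 and 66.4) and on no other array, where it read 18, 16.1 and 18.8 at day 0 and 15.5, 11.6 and 17.1 at day 3. Its log2 difference between day 7 and day 0 was 0.85 ± 0.34 (limma adjusted p = 0.327). Because it met the filter through the day 7 arrays alone, a higher day 7 was favoured in advance.

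The lines differed in how many Hox genes were measured at day 7. A set of 8 members (Hoxa3, Hoxb6, Hoxc5, Hoxc6, Hoxc9, Hoxd4, Hoxd8 and Hoxd9) were measured at day 7 in wild type and PKm1KI and not in PKm2KI. The background limit of the PKm2KI day 7 array was 21.6, against 15 and 15.6 on the day 7 arrays of wild type and PKm1KI. The PKm2KI signals of Hoxa3 (19.8), Hoxc6 (21), Hoxc9 (18.8) and Hoxd4 (24.9) were above the limits of those 2 arrays, so this count moves with the limit. With 1 array per line and day the difference has no test, and the share of all genes with the same pattern was not computed. The median difference of the 21 tested members between day 7 and day 0 was 0.28 in wild type and 0.64 in PKm1KI, each on 1 slide, and -0.65 in PKm2KI across slides. Between day 3 and day 0 the medians were -1.91, -1.37 and -1.32 in wild type, PKm1KI and PKm2KI, and between day 7 and day 3 they were 1.06, 2.05 and 0.67.

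Hoxc6, which marks the brachial spinal cord, read 64.5, 44.4 and 86 at day 0, 8.13, 13.5 and 14.8 at day 3, and 239, 159 and 21 at day 7. It was measured in all lines at day 0, in none at day 3, and at day 7 in wild type and PKm1KI, above their day 0 signals. Hoxc9, which gives thoracic motor neurons their identity, read 5.43, 18.4 and 33.8 at day 0, 14.5, 5.1 and 5.59 at day 3, and 153, 202 and 18.8 at day 7. Its 2 high arrays were wild type and PKm1KI at day 7.

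Hoxc5 read 11.2, 10.6 and 36.3 at day 0, 14.4, 5 and 5.06 at day 3, and 29.5, 30.8 and 6.44 at day 7, so that PKm2KI was the high line at day 0 and the low one at day 7. Hoxd9, of the lumbar region and upper limb, was measured only at day 7 in wild type (24.3) and PKm1KI (35.7) and read 5 in PKm2KI.

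Averaged over the 3 days, no member passed between lines. Limma called 0 of 21 in PKm1KI against wild type, PKm2KI against wild type and PKm2KI against PKm1KI, with 2, 4 and 0 at an unadjusted p under 0.05, beside 12.1%, 13.3% and 7.78% of all genes at that threshold. It called 0.0133%, 0.0133% and 0% of all genes. The medians were 0.10, -0.05 and -0.26. Both knock-in lines share the wild type arrays as their control. Against wild type, Hoxb9 was lower at day 0 and day 7 in both and not well above background on any array at day 3, with a fitted log2 difference of -1.05 ± 0.36 in PKm1KI (limma adjusted p = 0.321) and -1.30 ± 0.36 in PKm2KI (limma adjusted p = 0.210). Hoxd13 was well above background in PKm2KI on all 3 days and in wild type only at day 0, with higher signals in PKm2KI (fitted log2 difference 2.37 ± 0.72, limma adjusted p = 0.238).

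Known regulators of the clusters were read beside the members. Of 13 genes that pattern the posterior body or the hindbrain, 10 were tested. At day 3, 0 passed as higher and 1 as lower, Egr2, a hindbrain segment gene, with a log2 change of -6.54 ± 1.08 (limma adjusted p = 0.0354). At day 7 against day 3, limma called 0 (1 at an unadjusted p under 0.05, beside 30.4% of all genes). Of the 10, 8 were higher, and the list median was 1.08 against -0.13 for all genes.

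Cdx2, a direct activator of trunk Hox genes, read 40.3, 8.93 and 59.5 at day 0, 15.5, 42.2 and 14.5 at day 3, and 129, 585 and 13.7 at day 7. T (Brachyury), a gene of the primitive streak, read 177, 71.1 and 12.3 at day 7, and Wnt3, a signal for streak formation, 112, 105 and 5. All 3 were thus high at day 7 in wild type and PKm1KI and low in PKm2KI, the lines in which Hoxc6, Hoxc9 and Hoxd9 were high and low. Others of the list ran otherwise at day 7: Cdx1, a Cdx factor like Cdx2, read 592, 104 and 360, Tbx6 112, 200 and 165, and Nr6a1 264, 379 and 265. Cdx1 had a log2 difference of -2.97 ± 0.48 between day 7 and day 0 (limma adjusted p = 0.124), with all day 7 arrays below all day 0 arrays. Other Hox members ran otherwise too: at day 7 Hoxa7 read 70.2, 352 and 321, Hoxb7 42.9, 120 and 104, and Hoxc13 114, 119 and 138. Cdx2, T and Wnt3 were chosen after their values were seen, and Hoxc6, Hoxc9 and Hoxd9 likewise with their values known. The part of these regulators in the Hox differences was not tested.

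In the retinoic acid pathway, 16 of 18 genes were tested. Cyp26b1, which degrades retinoic acid, passed at day 3 against day 0 and was at least 4.59-fold lower (fitted log2 change -2.69 ± 0.44, limma adjusted p = 0.0344), and 0 passed as higher. At day 7 against day 3 limma called 0 of 16 (6 at an unadjusted p under 0.05, beside 30.4% of all genes). Cyp26b1 was at 3.00 ± 0.44 (limma adjusted p = 0.0698) and Cyp26a1, a target that also degrades retinoic acid, at 6.52 ± 1.58 (limma adjusted p = 0.0854). Cyp26a1 read 32.8, 39.7 and 219 at day 0, 27.2, 13.8 and 5.65 at day 3, and 1910, 9280 and 93.1 at day 7.

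Lists that bear on how Hox genes act or are held silent had no call in any day comparison. Of all genes, 26.4% were at an unadjusted p under 0.05 at day 3 against day 0 and 30.4% at day 7 against day 3. The 9 tested TALE cofactors, proteins that bind DNA with Hox factors, had a median of -0.11 at day 3 against day 0 and 0.05 at day 7 against day 3, with 1 and 4 at an unadjusted limma p under 0.05. Among them Pknox2 had log2 differences of -1.83 ± 0.38 (limma adjusted p = 0.0514) and 2.40 ± 0.38 (limma adjusted p = 0.0701). The 18 Polycomb and Trithorax genes had medians of 0 and -0.21 and 4 and 7 genes at an unadjusted limma p under 0.05, with the Polycomb gene Bmi1 at -1.62 ± 0.38 at day 3 against day 0 (limma adjusted p = 0.0684).

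The 15 tested neighbours of the clusters on the chromosome had medians of 0.02 and -0.19, against 0.10 and -0.13 for all genes. In each comparison 6 were at an unadjusted limma p under 0.05, beside 26.4% and 30.4% of all genes. Of them Snx11, next to Hoxb, was 0.85 ± 0.22 at day 3 against day 0 (limma adjusted p = 0.0839), and Skap1 -0.74 ± 0.23 (limma adjusted p = 0.115). At day 7 against day 3, 4 neighbours were higher and 11 lower. Skap1 was at 2.03 ± 0.23 there (limma adjusted p = 0.0568) and Ttll6 at -1.62 ± 0.32 (limma adjusted p = 0.0769). At day 3, Skap1 was well above background on 1 array. The 2 ParaHox genes tested (Gsx1 and Gsx2) had medians of -0.82 and 0.41 and none at an unadjusted p under 0.05. Of the noncoding genes inside the clusters only Hoxa11os was tested, at 1.20 ± 0.32 between day 7 and day 3 (limma adjusted p = 0.0913).

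Markers of other cell types differed between the same days. All 18 tested fibroblast markers were lower at day 3 than at day 0 with a median of -2.30, and 6 passed, among them Col6a1 at -4.09 ± 0.32 (limma adjusted p = 0.0095), Col1a2 at -4.42 ± 0.75 (limma adjusted p = 0.0377) and Dcn at -6.19 ± 1.09 (limma adjusted p = 0.0393). Their summed signal was 5440 to 20400 at day 0, 1140 to 2330 at day 3, and 5830, 11200 and 1070 at day 7 in wild type, PKm1KI and PKm2KI. Single markers differed from the sum. At day 7 against day 0, 13 were lower and 5 higher, with a median of -0.81. Mgp at -7.09 ± 0.59 (limma adjusted p = 0.0247) and Col6a3 at -3.74 ± 0.18 (limma adjusted p = 0.00367) passed, beside 0.0999% of all genes. At day 7 Dcn read 262, 124 and 60.1, and Pdgfra alone gave 4280 of the PKm1KI sum. Of 20 markers, 18 were measured on each day 0 array, 14, 10 and 10 at day 3, and 16, 16 and 11 at day 7. Fap was well above background on no array. The fibroblast sums and the Hox counts were both lower at day 3 than at day 0 in every line and both lowest at day 7 in PKm2KI, while at day 0 PKm2KI had the lowest fibroblast sum and the highest Hox count. Their part in the Hox results was not tested. Whether feeder fibroblasts were used is not given in the sources used here.

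Of mesoderm markers, 10 of 13 were tested, with medians of -0.92 at day 3 against day 0 and 1.38 at day 7 against day 3. Foxc2, a somite gene, passed as at least 3.24-fold lower at day 3 and at least 3.53-fold lower at day 7 against day 0 (limma adjusted p = 0.0069 and 0.0365). The 8 tested neural markers had medians of -0.24 and 0.04 with no limma call and 0 and 2 at an unadjusted p under 0.05. The 11 tested yolk sac endoderm markers had medians of -0.04 and 4.90 with no limma call and 0 and 9 at an unadjusted p under 0.05. Of all genes, 26.4% and 30.4% were under that threshold. The yolk sac endoderm markers summed to 413 to 909 at day 0 and day 3 and to 9870, 508000 and 3650 at day 7 in the 3 lines. Of the ES markers 1 passed, Klf4, which was lower at day 3 than at day 0 (-2.12 ± 0.27, limma adjusted p = 0.0229). The part of these cell types in the Hox results was not tested.

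**Figure D5:**
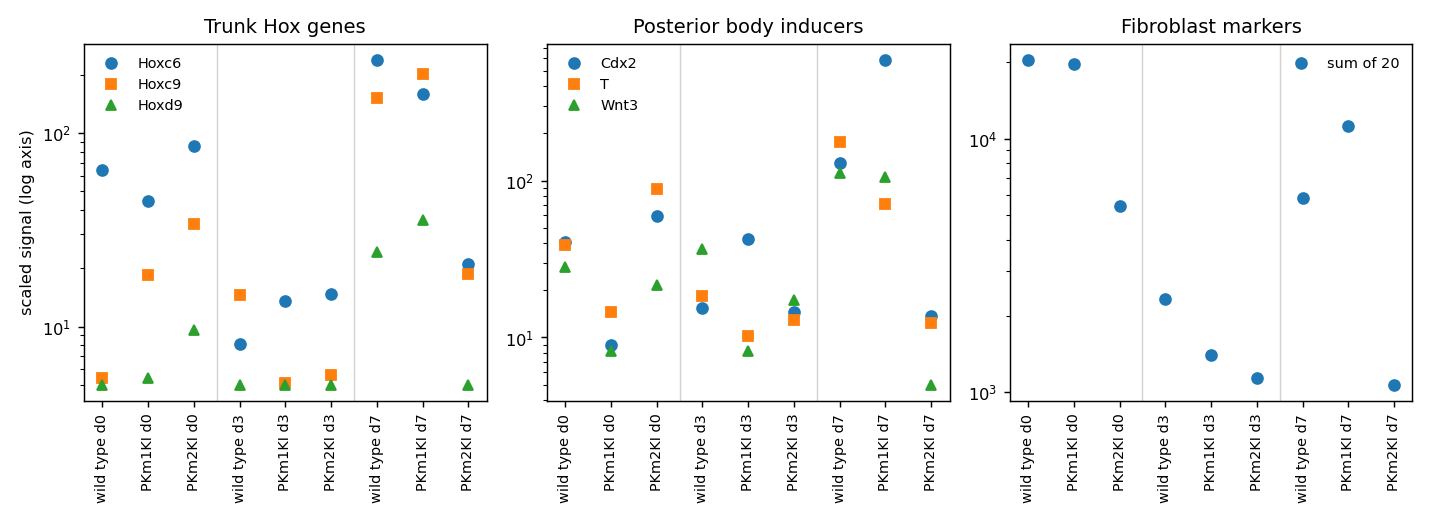
Scaled signal on a log axis (y) of 3 trunk Hox genes, of 3 posterior body regulators and of the sum of 20 fibroblast markers on the 9 arrays (x, grouped by day). The Hox genes and regulators shown were chosen with their values known, and other members and regulators ran otherwise at day 7. At day 7 all 3 panels are higher in wild type and PKm1KI than in PKm2KI, and the fibroblast sum at day 3 is at most 2330; levels compare arrays within a gene, not genes.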

How the data were processed

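Total RNA was column purified and 0.1 µg was labelled with Cy3, per the labels' protocols. Per the file headers and the submitters' processing notes, the authors read intensity values with Agilent Feature Extraction 10.10, which subtracts background from each spot. Their value table gives these intensities in rounded form.

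Control spots (3671 of 62976 per array) and outlier-flagged spots were left out. Probes were named through their RefSeq accession, which gave 27235 of 55681 probes a symbol, and 41 probes covered the 38 members. The RefSeq table holds 39 Hox genes, 1 of which is not reported here. Signals were scaled to an equal 75th percentile per array, set to a floor of 5, log2 transformed and averaged over the spots of a probe. A probe was well above background when at least 50% of its spots were. Genes were kept if a probe met this on 3 or more of 9 arrays (15016 genes), each by its probe with the highest mean signal.

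With limma 3.58.1 (R 4.3.3) and empirical Bayes moderation, all 9 arrays were fitted by line plus day, and p-values of the 6 contrasts were adjusted over all genes (Benjamini-Hochberg). Errors are standard errors of the fit, with a median of 0.262 over all genes. The fit was tested on simulated data. A fold against a group not well above background was bounded by the higher of the array's lowest signal well above background and the probe's own signal. Since other probes above that lowest signal were not well above background, such bounds are nominal. Slides held 5, 3 and 1 arrays.

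Members and gene lists were chosen with earlier results of these data known. All members measured on at least 1 array are named, values on every array are given for members that passed and for up to 4 more per cluster with the highest signal on any array (and for Hoxb13, chosen after its values were seen), and up to 3 members of each other list (up to 2 where none passed) are named by change or p, in some of the comparisons. The other lists covered TALE cofactors, posterior body and hindbrain regulators, the retinoic acid pathway, Polycomb and Trithorax, cluster neighbours, cluster noncoding genes, ParaHox genes, and ES, fibroblast, mesoderm, neural and yolk sac endoderm markers. Alternatives covered background correction (normexp, offset 50), normalization, the value table, filters, floors, probe choice, moderation, the design, the slide, single arrays and thresholds. Promoter windows were searched in Python 3.11.15, and figures drawn with matplotlib 3.10.9.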

Additional observations from a re-analysis of the deposited data

Results flagged for a closer look

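For 7 combinations of member and comparison, the signals of at least 1 line were 2-fold or more higher and those of another 2-fold or more lower between the same days, each on 1 array per day and with the brighter array well above background. None of these differences between lines was tested, since no array is repeated. Between day 7 and day 0 the log2 differences in wild type, PKm1KI and PKm2KI were 1.89, 1.84 and -2.03 for Hoxc6, 1.39, 1.53 and -2.50 for Hoxc5, and 0.33, 1.49 and -1.73 for Hoxd8. For Hoxa3 they were -0.92, 1.93 and -1.58. For Hoxd11 they were 0.70, -7.68 and 1.95, with the single spot of the PKm1KI day 0 array behind the second value. Between day 3 and day 0 the differences were 3.16, 0.75 and -1.91 for Hoxb5 and -2.34, 1.45 and -0.73 for Hoxd13. Only the wild type and PKm1KI values of Hoxa3 and Hoxc6, the wild type value of Hoxd8 and the PKm2KI value of Hoxd13 have both arrays well above background, and the others are differences of signals and not of levels. Against the background limit, Hoxc5 was at least 1.76-fold and 1.29-fold higher in wild type and PKm1KI and at least 1.68-fold lower in PKm2KI, Hoxd8 at least 1.57-fold lower and Hoxd11 at least 1.93-fold higher in PKm2KI, and Hoxd13 at least 1.81-fold higher in PKm1KI. These 4 thus do not reach 2-fold both ways by their bounds, while Hoxa3, Hoxb5 and Hoxc6 do. The PKm2KI day 7 array was alone on its slide.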

How the results depend on the processing

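The number of members called at day 3 against day 0 was 3, and became 1 with no filter, 1 of 2 tested when only genes measured on all 9 arrays were kept, 5 with the slide as a block, 8 with only the 6 arrays compared and 6 at an adjusted p under 0.1. Leaving out single arrays gave 0 to 7. At day 7 against day 3 the count was 0, and became 2 with normexp background correction, 1 with scaling to detected probes, 2 with trend and robust moderation, 7 with the slide as a block, 6 at an adjusted p under 0.1 and 0 to 9 without single arrays (9 without the PKm2KI day 7 array). Of all genes, the main fit called 4.04% and 0% in these 2 comparisons. The slide block called 3.84% and 7.02%, and the fit without the PKm2KI day 7 array 8.76% and 17.4%. For the other alternatives this share is not given here, so their counts are not read as results about the members. The other 4 comparisons gave 0 under each alternative run. Hoxb9 lost its call at day 3 in 4 of 21 alternatives (highest limma adjusted p 0.0711), Hoxc13 in 8 of 22 (0.154) and Hoxc4 in 11 of 21 (0.199), and none of the 3 reversed. The median of the tested members at day 3 ranged from -1.87 to -0.46, and at day 7 against day 3 from 0.43 to 1.55. Scaling to detected probes moved the median of all genes by -0.19 and 0.22 in these comparisons. Counting a probe as measured when positive and significant (a lower bar) gave 34, 29 and 34 members in wild type at days 0, 3 and 7, 30, 28 and 34 in PKm1KI and 31, 28 and 28 in PKm2KI. Line is a term of the fit, so days were compared within lines, and without it 4 members passed at day 3 against day 0 and 0 at day 7 against day 3. Signals near background limit the dim members most.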
